A study of Mus musculus with 12 samples.

Results

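Fragments of the cytosolic threonine tRNAs were followed in small RNA libraries of mouse sperm and of TM4 cells, a cell line of mouse Sertoli cells, the somatic cells that nurse germ cells in the testis. The members were chosen by name, as every read assigned to a mature tRNA of the isoacceptors mature-tRNA-Thr-AGT, mature-tRNA-Thr-CGT and mature-tRNA-Thr-TGT (written without the prefix from here on), and they make up 3 of the 51 mature tRNA isoacceptors in the libraries. Each isoacceptor was split into 3 fragment classes: tRF5 for reads of the 5′ end, tRF3 for reads of the 3′ end, with or without the CCA tail, and other for all remaining reads. All 9 tRNA-Thr tRFs (an isoacceptor with a class) had at least 1 read in some library, among 152 such tRFs in all.

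The sperm came from the epididymis of C57BL6/J mice fed a control diet (CD) or a high-fat diet (HFD) for 7 weeks from 4 weeks of age, with 3 libraries per diet and the sperm of 3 mice pooled in each. The labels give fat as 16% of the energy in the CD and 69% in the HFD, while the methods state a lower share for the HFD. TM4 cells were left untreated (Ctrl), treated with Compound C (CC), an inhibitor of the energy sensor AMPK, at 10 µM for 12 h, or made to overexpress Ang, the gene of the ribonuclease angiogenin, from a plasmid (Ang OE), with 2 libraries per group. The untreated cells were the only control, so the effect of carrying a plasmid cannot be told apart from that of Ang. No solvent control is named for CC either, so a solvent's effect cannot be told apart from that of CC. The sources used here do not say whether the TM4 libraries came from separate cultures, so p-values in TM4 cells measure the spread between these libraries, which may be technical.

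A tRNA carries an amino acid to the ribosome, and threonine tRNAs read the codons that begin with AC. The anticodon AGT is edited to inosine at its first base, which lets one tRNA read several of these codons, while CGT and TGT read fewer. All 3 tRNAs end in CCA, a tail that mouse genes do not encode and that the CCA-adding enzyme attaches after transcription, and threonyl-tRNA synthetase loads threonine onto its last base. Angiogenin cuts tRNAs in the anticodon loop, which leaves a 5′ and a 3′ piece, and shorter fragments come from cuts in the other loops. Sperm take up much of their tRNA fragment load while they pass through the epididymis, and mouse sperm are rich in 5′ pieces of a few tRNAs.

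A search of the mouse genome build GRCm39 for the threonine cloverleaf found each of the 17 tRNA-Thr genes that RefSeq names: 9 with the anticodon AGT in 7 distinct sequences, 4 with CGT in 4 sequences and 4 with TGT in 3 sequences. The sequences below are 5 of these 14, with each isoacceptor and each gene length represented, shown because the similarity of their ends decides which fragments can be told apart. Capitals mark the anticodon, and the tail CCA is not part of the gene. The AGT form is 74 nt long (n-TTagt8, chr11:68928679-68928752, plus strand, the same sequence in 3 genes). The CGT forms are 74 nt (n-TTcgt2, chr13:21448750-21448823, plus strand) and 72 nt (n-TTcgt3, chr11:79595476-79595547, plus strand), and the TGT forms are 73 nt (n-TTtgt2, chr11:48744446-48744518, plus strand, the same sequence in 2 genes) and 74 nt (n-TTtgt4, chr13:21460126-21460199, plus strand).
n-TTagt8: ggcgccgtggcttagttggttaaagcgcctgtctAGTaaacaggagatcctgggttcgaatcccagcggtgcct
n-TTcgt2: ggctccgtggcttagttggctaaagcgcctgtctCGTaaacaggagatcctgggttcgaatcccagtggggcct
n-TTcgt3: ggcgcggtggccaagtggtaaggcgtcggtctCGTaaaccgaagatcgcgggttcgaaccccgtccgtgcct
n-TTtgt2: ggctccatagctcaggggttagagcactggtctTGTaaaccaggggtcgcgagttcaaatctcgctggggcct
n-TTtgt4: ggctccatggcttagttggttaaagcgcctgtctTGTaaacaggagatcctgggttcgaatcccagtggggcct

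By the GENCODE annotation of GRCm39, n-TTagt8, n-TTtgt2 and n-TTtgt4 are intergenic, n-TTcgt2 lies in an intron of the long non-coding RNA gene Gm60918 and n-TTcgt3 in an exon of the long non-coding RNA gene Gm11205. Of the 17 genes, 9 are intergenic, and n-TTagt5 lies in an exon of Per1, a gene of the circadian clock. Between isoacceptors, the 5′ ends are identical over 3 to 15 nt. At the 3′ end an AGT gene shares at most 7 nt with a CGT or TGT gene, whereas n-TTcgt2 and n-TTtgt4 share their last 39 nt. Inside the tRNA, from the anticodon's second base through the T arm, an AGT gene shares a run of up to 31 nt with a CGT or TGT gene. These lengths count identical bases alone, while the authors' run allowed 1 mismatch, and stretches alike but for 1 base can be longer. Reads from shared stretches fit more than 1 isoacceptor. The deposited values, which need not be whole, leave the assignment of such reads among all 3 isoacceptors uncertain, at the ends and inside.

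In sperm, mature-tRNA-Thr-TGT gave the most reads of the family. Its level, in reads per 1000000 clean reads other than rRNA (RPM), was 306, 548 and 189 in CD replicates 1 to 3 and 631, 662 and 409 in HFD replicates 1 to 3. HFD replicate 3 lay below CD replicate 2, so the diets overlapped, and CD replicate 2 stood well above both other CD libraries. The level of mature-tRNA-Thr-CGT was 189, 216 and 145 RPM in the CD libraries and 202, 281 and 302 RPM in the HFD libraries, and that of mature-tRNA-Thr-AGT was 24.9, 31.0 and 19.9 against 43.5, 28.6 and 32.9 RPM. The TGT isoacceptor stood above CGT and CGT above AGT in each of the 6 sperm libraries, although the ranges of TGT and CGT overlapped across the CD libraries. The genes are of nearly equal length, so these levels need no correction for length.

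Levels of tRNA-Thr-TGT were lower in each TM4 library than in any sperm library, while the ranges of tRNA-Thr-CGT and tRNA-Thr-AGT overlapped between sperm and TM4 cells. The level of tRNA-Thr-CGT was 89.4 and 90.5 RPM in Ctrl replicates 1 and 2, 106 and 148 RPM with CC and 83.0 and 124 RPM with Ang OE. For tRNA-Thr-TGT the values were 60.4 and 66.8 RPM in Ctrl, 81.9 and 112 RPM with CC and 49.1 and 49.8 RPM with Ang OE, and for tRNA-Thr-AGT they lay between 14.5 and 26.3 RPM over the 6 libraries. CGT stood above TGT in each of the 6 TM4 libraries, the opposite of sperm, and the ranges of CGT and TGT did not overlap within the Ctrl or the Ang OE libraries but did within the CC libraries. Tissue and preparation differ together between sperm and TM4 cells and cannot be told apart. In all these bulk libraries fewer cells of a type and less RNA per cell cannot be told apart either.

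**Figure D1:**
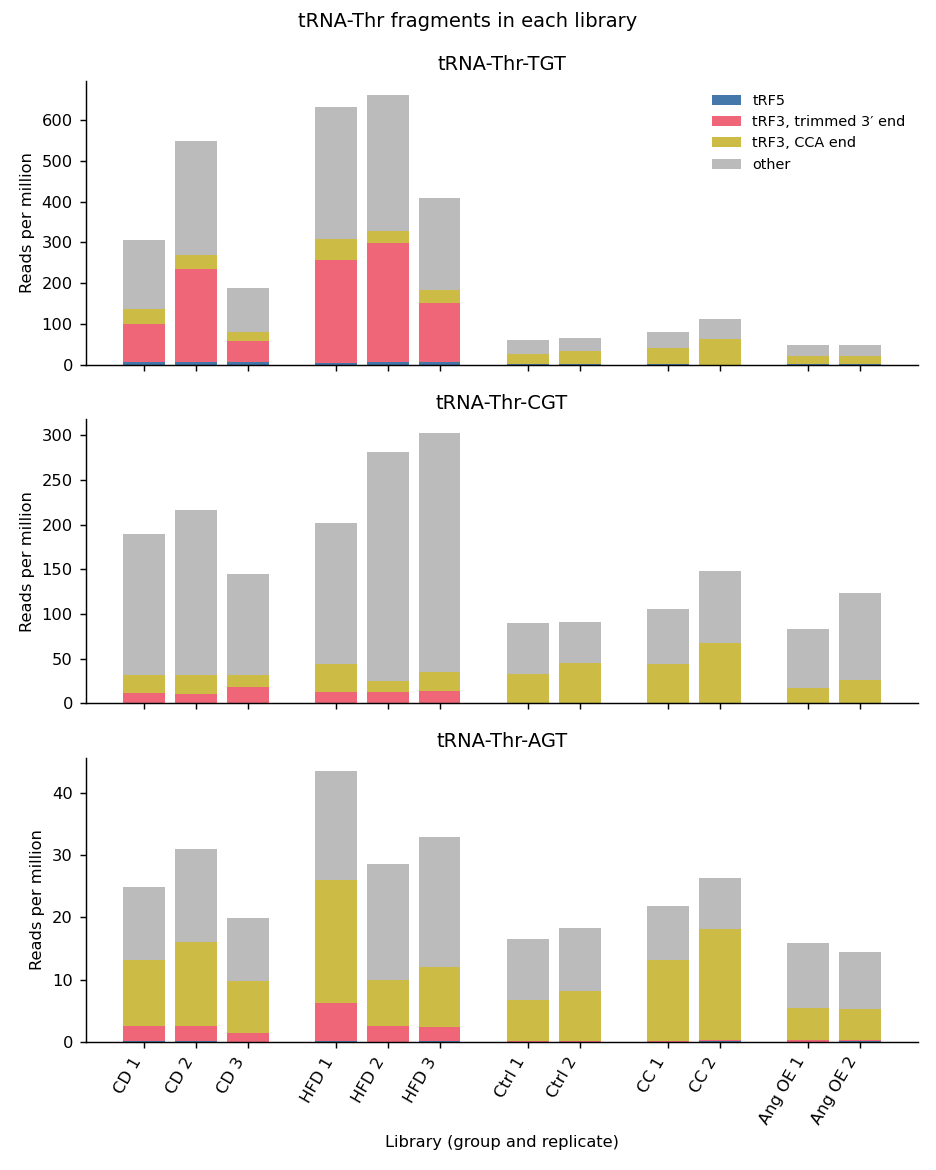
Stacked bars give the level of each tRNA-Thr isoacceptor in RPM (vertical axis, a different range for each isoacceptor) in the 12 libraries (horizontal axis), divided into tRF5, trimmed tRF3, CCA-ended tRF3 and other reads. Trimmed tRF3 (red) fills much of the tRNA-Thr-TGT bars in sperm, from 51.9 to 291 RPM, and is under 0.1 RPM in TM4 cells.

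Among the 23 tRNA families, that of threonine ranked 13 in sperm and 16 in TM4 cells by mean level. By isoacceptor, out of 51, tRNA-Thr-TGT ranked 25 in sperm and 40 in TM4 cells, tRNA-Thr-CGT ranked 36 and 33, and tRNA-Thr-AGT ranked 48 in both. Threonine reads made up 0.213% to 0.739% of all mature tRNA reads in sperm and 0.380% to 1.07% in TM4 cells.

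The make-up of tRNA-Thr reads differed from that of the pooled reads of the other tRNAs. In sperm, tRF5 was 1.17% of tRNA-Thr reads on average over the 6 libraries, against 72.3% of that pool, in which the isoacceptors with most reads weigh most, a difference of −71.1 percentage points (SD 5.52, n = 6). tRF3 was 35.6% of tRNA-Thr reads against 2.34%, and other was 63.2% against 25.4%. Each of these differences had the same sign in 6 of 6 libraries (exact 2-sided sign-flip permutation test within libraries, p = 0.0313, the smallest that 6 pairs allow, adjusted p = 0.0357 over 8 comparisons).

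This make-up was shared with several other families. Under the CD, tRF5 was 1.46% ± 0.424 (SD, n = 3) of tRNA-Thr reads, against 0.0193% of tRNA-Cys, 0.292% of tRNA-Gln and 1.24% of tRNA-Ile reads, while it was 89.1% of tRNA-Gly, 79.9% of tRNA-Glu and 72.7% of tRNA-Val reads. tRF3 was 34.9% ± 3.39 of tRNA-Thr reads under the CD, against 50.03% of tRNA-Pro, 37.0% of tRNA-Phe and 30.3% of tRNA-Ile reads.

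The gaps to the pool differed between the TM4 groups. Over the 6 TM4 libraries tRF5 was 1.12% of tRNA-Thr reads against 37.0% of the other tRNAs' reads. There tRF3 was 40.0% against 26.9% and other was 58.9% against 36.1%. Each sign was again the same in 6 of 6 libraries (exact sign-flip permutation p = 0.0313, adjusted p = 0.0357). The test took libraries of 3 treatment groups as alike, and the 3 shares depend on each other, so its p describes no single group. With Ang OE other was 71.0% of tRNA-Thr reads on average against 27.5% of the pool, while in CC replicate 2 both gaps above 0 were narrow: tRF3 was 52.0% against 47.1% and other was 47.7% against 45.7%. The share of tRF5 among the other tRNAs ran from 7.23% in CC replicate 2 to 63.2% in Ang OE replicate 2, while in tRNA-Thr it stayed between 0.293% and 1.56%.

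**Figure D2:**
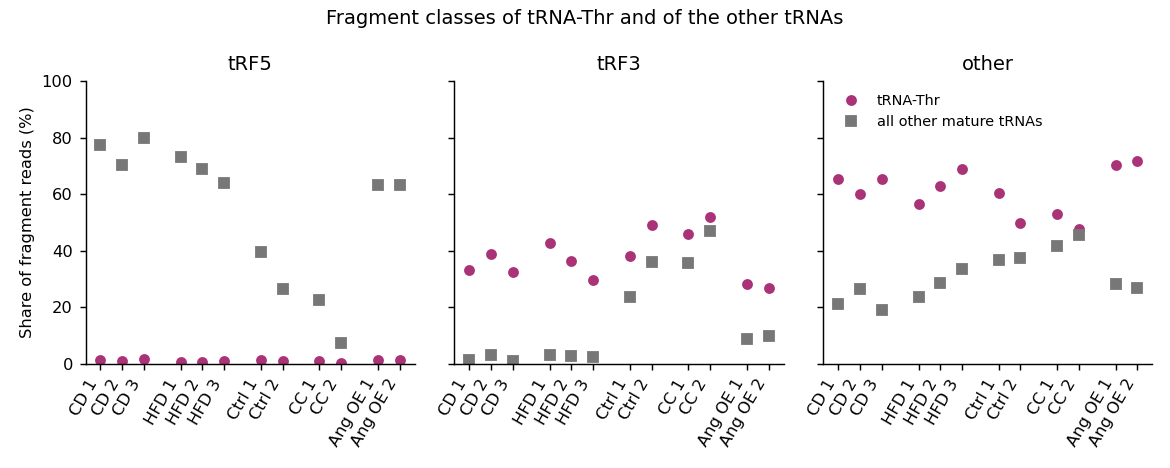
Points give the share of reads, in percent, that fell into tRF5, tRF3 and other in each of the 12 libraries, for tRNA-Thr (circles) and for all other mature tRNAs together (squares). The tRNA-Thr circles lie under 2% in the tRF5 panel in every library, while the squares lie between 7.23% and 79.9%.

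The 5′ end of tRNA-Thr was almost absent. For tRNA-Thr-AGT, tRF5 had 0 to 9 reads per library, and for tRNA-Thr-CGT it had 0 to 18, against a level of 3 reads per library as the limit that a count of 0 allows. tRNA-Thr-TGT carried nearly all of the family's tRF5, with 6.76, 7.47 and 6.61 RPM in the CD libraries, 5.75, 6.99 and 8.28 RPM in the HFD libraries and 0.735 to 2.77 RPM in TM4 cells. Even there, tRF5 was 0.656% to 5.56% of the isoacceptor's reads.

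The 3′ end differed between the isoacceptors. In tRNA-Thr-TGT, tRF3 made up 39.1% to 48.3% of reads in sperm and 38.9% to 56.8% in TM4 cells. tRNA-Thr-CGT was mostly other, at 78.0% to 91.1% in sperm and 50.5% to 79.4% in TM4 cells. tRNA-Thr-AGT was divided between tRF3, at 34.4% to 59.7% of reads in sperm, and other.

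SPORTS1.1 reports 3′ ends that stop before the CCA tail, called trimmed here, apart from those that keep it. Trimmed 3′ ends of tRNA-Thr-TGT stood at 94.1, 227 and 51.9 RPM in the CD libraries and 252, 291 and 143 RPM in the HFD libraries. In TM4 cells they had 1.5 to 5 reads per library, or under 0.1 RPM. The CCA-ended 3′ ends of the same tRNA were of similar level in both, at 21.96 to 52.2 RPM in sperm and 19.3 to 63.7 RPM in TM4 cells. By trimmed 3′ ends, tRNA-Thr-TGT ranked 4 of 51 isoacceptors in sperm and 43 in TM4 cells, and by CCA-ended ones it ranked 24 and 35.

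A single isoacceptor thus held 8.34% to 13.9% of all trimmed 3′ end reads of a sperm library. In CD replicate 3, with the fewest trimmed ends of this tRNA, the CCA-ended share of its tRF3 was 29.7% (95% Wilson interval 27.7% to 31.7%). In HFD replicate 2, with the most, it was 8.95% (8.32% to 9.63%). These intervals cover counting error only, and the reads carry no molecular identifiers.

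The other isoacceptors kept the tail more often in sperm. The CCA-ended share of tRF3 was 42.3% to 70.8% in tRNA-Thr-CGT and 74.3% to 85.2% in tRNA-Thr-AGT, so that AGT lay above CGT and CGT above TGT in each of the 6 sperm libraries. Over the 3 isoacceptors it averaged 27.9%, against 59.1% in the tRF3 of all other tRNAs, and was lower in 6 of 6 sperm libraries (difference −31.2 percentage points, SD 2.60, exact permutation p = 0.0313, adjusted p = 0.0357). That pool too joins unlike families. Under the CD the CCA-ended share was 32.7% in tRNA-Thr, 16.8% in tRNA-Pro and 36.3% in tRNA-Gln, and under the HFD it was 23.1%, 12.8% and 23.98%, while in tRNA-Gly, tRNA-Ala and tRNA-Phe it was above 98% under both diets. In TM4 cells the tail was on 99.5% of tRNA-Thr tRF3 and on 99.6% of the others' (difference −0.114 percentage points, SD 0.174, n = 6, exact permutation p = 0.156, adjusted p = 0.156).

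**Figure D3:**
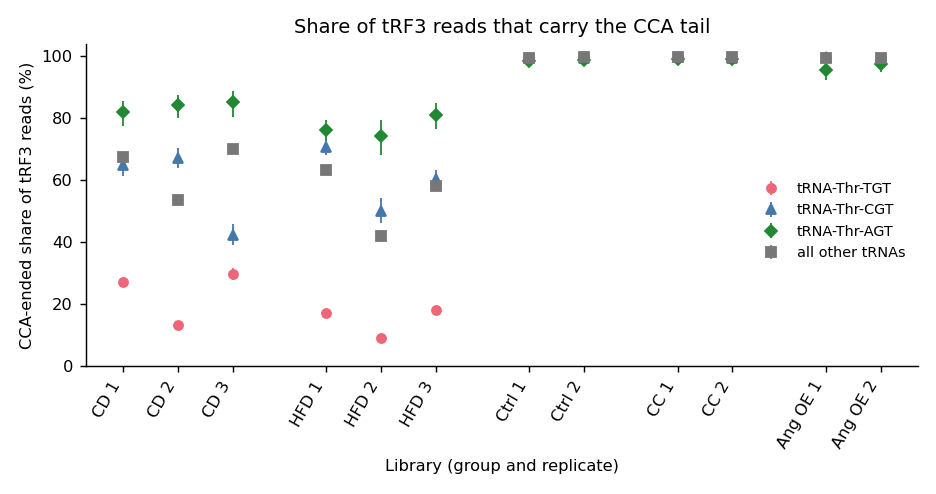
The vertical axis gives the share of tRF3 reads, in percent, that keep the CCA tail in each of the 12 libraries, for the 3 tRNA-Thr isoacceptors and for all other tRNAs together, with 95% Wilson intervals as bars. In sperm tRNA-Thr-TGT lies between 8.95% and 29.7%, under the other points of sperm, and in TM4 cells all 4 lie above 95%.

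CCA-ended reads also differed in whether they matched the genome, as the authors' run recorded it with up to 1 mismatch. In sperm, 99.5% to 99.8% of the CCA-ended reads of tRNA-Thr-CGT and 78.6% to 87.1% of those of tRNA-Thr-AGT had no match, against 0.455% to 1.89% of those of tRNA-Thr-TGT. In GRCm39 no tRNA-Thr gene is followed by the tail itself. The 3 bases after n-TTtgt3 differ from it by 1 mismatch, while those after every gene of the other isoacceptors differ from it by at least 2. Whether these bases set the difference was not tested.

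The question put to the sperm libraries was whether the diet changed the fragments. Under the HFD the level of tRNA-Thr reads as a whole was 864 ± 114 RPM (SD, n = 3) against 556 ± 223 RPM (SD, n = 3) under the CD, a difference within the spread of the libraries (exact 2-sided permutation test, p = 0.2, adjusted p = 0.383 over 23 families). Their share of mature tRNA reads was 0.637% ± 0.0579 against 0.430% ± 0.275 (n = 3 each, exact p = 0.4, adjusted p = 0.484). With 3 libraries against 3 the smallest p is 0.1.

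Of the 8 tRNA-Thr tRFs with enough reads for the edgeR quasi-likelihood test, 2 passed the threshold used for sperm, an unadjusted p under 0.05 with a fold change over 1.5. That threshold called 16.2% of all 142 tRFs tested, each of them higher under the HFD, while an adjusted p under 0.05 was reached by 0 tRFs with edgeR and 0 with DESeq2. With 1 library dropped, the number of tRFs under that adjusted p by edgeR was 26 when it was CD replicate 2, 2 when it was HFD replicate 1 and 0 for each of the other 4 libraries. A count of 2 in 8 among so few lies near this background. The tRF5 of tRNA-Thr-AGT had too few reads to be tested.

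The first was the tRF3 of tRNA-Thr-TGT, with 129, 261 and 73.9 RPM in the CD libraries and 304, 320 and 175 RPM in the HFD libraries. HFD replicate 3 lay under CD replicate 2, so the diets overlapped. Its log2 fold change was 0.78 (SE 0.35, unadjusted p = 0.0281, adjusted p = 0.260 by edgeR). The second was the other class of tRNA-Thr-AGT, with 11.7, 14.98 and 10.2 RPM in the CD libraries and 17.4, 18.7 and 20.8 RPM in the HFD libraries. Here every HFD library lay above every CD library, as was the case for 26.8% of the tRFs tested, and the log2 fold change was 0.63 (SE 0.30, unadjusted p = 0.0348, adjusted p = 0.260 by edgeR).

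The remaining 6 tRFs did not pass. The other class of tRNA-Thr-TGT stood at 171, 280 and 108 RPM against 322, 335 and 226 RPM (log2 fold change 0.66, SE 0.35, edgeR adjusted p = 0.263), and that of tRNA-Thr-CGT at 157, 183 and 113 against 158, 256 and 267 RPM (0.58, SE 0.35, adjusted p = 0.263). The tRF3 of tRNA-Thr-AGT and tRNA-Thr-CGT had log2 fold changes of 0.30 (SE 0.30) and 0.14 (SE 0.30). tRF5 had values of 0.01 (SE 0.31) for tRNA-Thr-TGT and −0.42 (SE 0.62) for tRNA-Thr-CGT.

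When trimmed and CCA-ended reads were counted as classes of their own, an alternative added after seeing the data that called 15.2% of 184 tRFs, the larger difference in tRNA-Thr-TGT lay in the trimmed ends. Their log2 fold change was 0.88 (SE 0.39, unadjusted p = 0.0315, adjusted p = 0.295 by edgeR), against 0.30 (SE 0.32, unadjusted p = 0.353) for the CCA-ended reads. With 1 library dropped the value for the trimmed ends ran from 0.51 (CD replicate 3) to 1.65 (CD replicate 2, edgeR adjusted p = 0.000659), and they no longer passed when CD replicate 1, CD replicate 3 or HFD replicate 2 was dropped, at 0.72, 0.51 and 0.67. The trimmed ends of tRNA-Thr-AGT stood at 2.36, 2.53 and 1.44 RPM in the CD libraries and 6.14, 2.52 and 2.25 RPM in the HFD libraries (0.79, SE 0.37, unadjusted p = 0.0397 by edgeR). HFD replicate 1 alone stood above the CD libraries, and without it the value was 0.18 (SE 0.35, unadjusted p = 0.616 by edgeR), while without CD replicate 3 it was 0.57 (unadjusted p = 0.197). Those of tRNA-Thr-CGT had a value of −0.02 (SE 0.31). The difference between trimmed and CCA-ended reads was not itself tested for each isoacceptor. For the family as a whole, the CCA-ended share of tRF3 was 23.1% ± 8.22 under the HFD and 32.7% ± 9.04 under the CD (n = 3 each, exact permutation p = 0.3, adjusted p = 0.846).

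These values stand on an upward shift of most tRFs. Scaled to clean reads other than rRNA, the 142 tRFs had a median log2 fold change of 0.44, with 91.55% of them above 0. Relative to that median, the tRF3 of tRNA-Thr-TGT was higher by 0.34 and the other class of tRNA-Thr-AGT by 0.19. Mature tRNA reads as a whole did not shift so. They were 15.4%, 10.8% and 16.6% of these clean reads in CD replicates 1 to 3. In HFD replicates 1 to 3 they were 13.5%, 14.1% and 12.97%, within the CD range. The rRNA reads left out were 24.7%, 25.2% and 16.5% of clean reads in CD and 32.95%, 30.5% and 24.7% in HFD. With rRNA kept the median was 0.31, with 12 calls higher and 1 lower. With TMM scaling over tRFs, the median was −0.08, the calls were 1 higher and 7 lower instead of 23 and 0, and none was a tRNA-Thr tRF. With DESeq2 and its own size factors the calls were 2 higher and 7 lower, again with none in tRNA-Thr.

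Single libraries decided the count of 2. It fell to 0 when CD replicate 1 or HFD replicate 2 was dropped and to 1 when CD replicate 3 was, the tRF5 of tRNA-Thr-CGT, which was lower under the HFD (log2 fold change −0.95). It rose to 4 when CD replicate 2 was dropped, where 54 of all 142 tRFs were called in place of 23, and stayed at 2, though not of the same pair, when HFD replicate 1 or 3 was. When CD replicate 2 was dropped, the tRF3 of tRNA-Thr-TGT had a log2 fold change of 1.39 (edgeR adjusted p = 0.00709, the lowest of its 14 alternatives, in which it ran up to 0.950). It passed when HFD replicate 3 was dropped too, at 1.01, and its log2 fold change was 0.67, 0.45, 0.68 and 0.63 when CD replicate 1, CD replicate 3, HFD replicate 1 or HFD replicate 2 was dropped. The other class of tRNA-Thr-AGT passed when CD replicate 2 or HFD replicate 1 was dropped, and its value was 0.60, 0.51, 0.64 and 0.56 when CD replicate 1, CD replicate 3, HFD replicate 2 or HFD replicate 3 was. CD replicate 2 also had the smallest share of mature tRNA reads in its library, 10.8% against 12.97% to 16.6% in the other sperm libraries, and the part of that in the result was not tested.

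The label of the sperm libraries was checked with microRNAs. All 10 microRNAs of testis germ cells that were listed had reads, with a summed level of 1829 to 5021 RPM in CD and 1880 to 2583 RPM in HFD. The 5 microRNAs of epididymal epithelium summed to 4484 to 5090 RPM in CD and 4480 to 7580 RPM in HFD, the 4 of red blood cells to 12630 to 16590 and 13350 to 25340 RPM, and the 2 of smooth muscle to 16160 to 26300 and 15330 to 29690 RPM. The 3 of white blood cells summed to 279 to 333 RPM in CD and 419 to 712 RPM in HFD, without overlap. The lists of red blood cells and of smooth muscle summed to more than that of germ cells under both diets. The check thus does not show the sperm libraries to be free of other cells. The part of any of these cells in the tRNA-Thr values was not tested. In TM4 cells mir-463, mir-743a and mir-880, microRNAs of germ cells, had 0 reads, while 6 or 7 of the 10 on that list were detected per group, with summed levels of 590.6 to 609 RPM in Ctrl, 550.4 to 595 RPM with CC and 1195 to 1335 RPM with Ang OE. There the epithelial list summed to under 2 RPM. The 5 microRNAs of cultured somatic cells summed to 3243 to 5841 RPM in sperm, 45210 to 48760 RPM in Ctrl, 47490 to 50630 RPM with CC and 77880 to 79300 RPM with Ang OE.

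In TM4 cells the study asked whether inhibition of AMPK and a surplus of angiogenin change tRNA fragments. The threshold was stricter here, an adjusted p under 0.05 with a fold change over 2, and 7 tRNA-Thr tRFs had enough reads among 143 tested in a model of all 6 libraries. The comparisons of CC and of Ang OE with Ctrl share the Ctrl libraries. Marker microRNAs moved in TM4 cells as well. The lists of cultured somatic cells and germ cells were higher with Ang OE, as given above, and that of smooth muscle summed to 29770 to 31250 RPM in Ctrl, 30290 to 42670 RPM with CC and 61710 to 79790 RPM with Ang OE. The list of red blood cells summed to 1607 to 1639 RPM in Ctrl, 1091 to 1152 RPM with CC and 1090 to 1164 RPM with Ang OE, and that of white blood cells to 2.28 to 2.42, 1.74 to 1.82 and 1.45 to 1.74 RPM, both without overlap between Ctrl and either treatment. The part of these markers in the tRNA-Thr values was not tested.

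With CC, none of the 7 passed against Ctrl, where 0.699% of all tRFs tested were called. The count of tRNA-Thr tRFs at an unadjusted p under 0.05 was 2, both of class tRF3, against 27.3% of all tRFs at that level. The tRF3 of tRNA-Thr-AGT stood at 6.67 and 8.18 RPM in Ctrl and 13.2 and 18.0 RPM with CC (log2 fold change 1.07, SE 0.26, edgeR adjusted p = 0.129), and that of tRNA-Thr-TGT at 24.1 and 33.3 against 38.8 and 63.7 RPM (0.84, SE 0.29, adjusted p = 0.147). For both, each CC library lay above each Ctrl library, which held for 55.9% of the tRFs tested. The tRF3 of tRNA-Thr-CGT stood at 32.4 and 44.8 against 44.5 and 67.5 RPM (0.54, SE 0.31, adjusted p = 0.265), with an overlap.

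No other class passed the test. Log2 fold changes were 0.44 (SE 0.20) for the other class of tRNA-Thr-TGT, 0.47 (SE 0.28) for that of tRNA-Thr-CGT and −0.23 (SE 0.22) for that of tRNA-Thr-AGT. The tRF5 of tRNA-Thr-TGT stood at 2.40 and 1.95 RPM in Ctrl and 1.76 and 0.735 RPM with CC (−0.79, SE 0.45, edgeR adjusted p = 0.260), each CC library below each Ctrl library, as was so for 8.39% of the tRFs tested. Without CC replicate 1, so that the lone CC library was assumed to vary like the other groups, 26 of all 143 tRFs passed in place of 1, and 3 of them were tRNA-Thr tRFs: the tRF3 of tRNA-Thr-AGT and tRNA-Thr-TGT and the tRF5 of tRNA-Thr-TGT, with log2 fold changes of 1.28, 1.15 and −1.56.

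All 49 tRF3 tested had a value above 0 with CC, with a median log2 fold change of 0.59, and the median of the 3 tRNA-Thr tRF3 was 0.84. Over all classes the median was 0.43, and TMM scaling moved it to −0.05. With DESeq2 and the same library sizes 3 tRFs were called higher and 3 lower, instead of 1 and 0, and 1 of them was the tRF3 of tRNA-Thr-AGT.

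With Ang OE, none of the 7 passed against Ctrl either, where 9.79% of all tRFs tested were called, 4.2% higher and 5.59% lower, and 10.5% reached an adjusted p under 0.05 at any fold. DESeq2 called 0 of the 7 as well. At an unadjusted p under 0.05 the count by edgeR was 2, both in tRNA-Thr-CGT, against 35.7% of all tRFs. Its tRF3 stood at 32.4 and 44.8 RPM in Ctrl and 17.1 and 25.7 RPM with Ang OE (log2 fold change −0.85, SE 0.31, edgeR adjusted p = 0.0921), and its other class at 56.9 and 45.7 against 65.9 and 98.1 RPM (0.68, SE 0.28, adjusted p = 0.130). Within this isoacceptor the share of tRF3 was 36.3% and 49.5% in Ctrl and 20.6% and 20.7% with Ang OE. With 2 libraries against 2 the smallest exact p is 0.33, so these shares were not tested.

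tRF3 of the other isoacceptors was also lower in both Ang OE libraries than in both Ctrl libraries, which held for 42.0% of the tRFs tested. The log2 fold change was −0.50 (SE 0.26, edgeR adjusted p = 0.184) for tRNA-Thr-AGT and −0.56 (SE 0.29, adjusted p = 0.184) for tRNA-Thr-TGT, and over all 49 tRF3 the median was −0.65. The tRF5 of tRNA-Thr-TGT had a value of 0.16 (SE 0.44), where the median of the 44 tRF5 tested was 0.63. Over the family, tRF3 was 38.0% and 49.1% of reads in Ctrl, 46.0% and 52.0% with CC and 28.4% and 26.7% with Ang OE.

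Set against each other, Ang OE and CC differed in tRF3 of all 3 isoacceptors. The tRF3 of tRNA-Thr-AGT stood at 5.39 and 5.14 RPM with Ang OE and 13.2 and 18.0 RPM with CC, 2.96-fold lower with Ang OE (log2 fold change −1.57, SE 0.26, edgeR adjusted p = 0.00495). That of tRNA-Thr-CGT stood at 17.1 and 25.7 against 44.5 and 67.5 RPM (−1.39, SE 0.32, adjusted p = 0.0115), and that of tRNA-Thr-TGT at 19.6 and 19.4 against 38.8 and 63.7 RPM (−1.39, SE 0.29, adjusted p = 0.00964). In each case both Ang OE libraries lay below both CC libraries, which held for 55.2% of the tRFs tested.

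The background was high in this comparison. It called 38.5% of all 143 tRFs tested, 27.3% as lower and 11.2% as higher with Ang OE, while 51.7% reached an adjusted p under 0.05 and 57.3% an unadjusted one, at any fold. Among tRF3 alone 59.2% were called, each of them lower, and the median log2 fold change of the 49 was −1.28 against −1.39 for the 3 of tRNA-Thr. The 3 values lay close to that of their class.

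The remaining tRNA-Thr tRFs were not called. The other class of tRNA-Thr-TGT stood at 27.4 and 27.7 RPM with Ang OE and 41.3 and 47.6 RPM with CC (−0.69, SE 0.20, edgeR adjusted p = 0.0225), under the fold threshold. The other class of tRNA-Thr-AGT and of tRNA-Thr-CGT had values of 0.22 (SE 0.22) and 0.20 (SE 0.28), and the tRF5 of tRNA-Thr-TGT one of 0.95 (SE 0.45, adjusted p = 0.106). With TMM scaling the median over all tRFs moved from −0.38 to 0.03, the calls were 22 higher and 20 lower instead of 16 and 39, and of the tRNA-Thr tRFs the tRF3 of AGT alone was called. Without CC replicate 2 the tRF3 of tRNA-Thr-TGT fell short of the fold threshold (log2 fold change −0.99), and without CC replicate 1 its tRF5 was called as well (1.72).

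**Figure D4:**
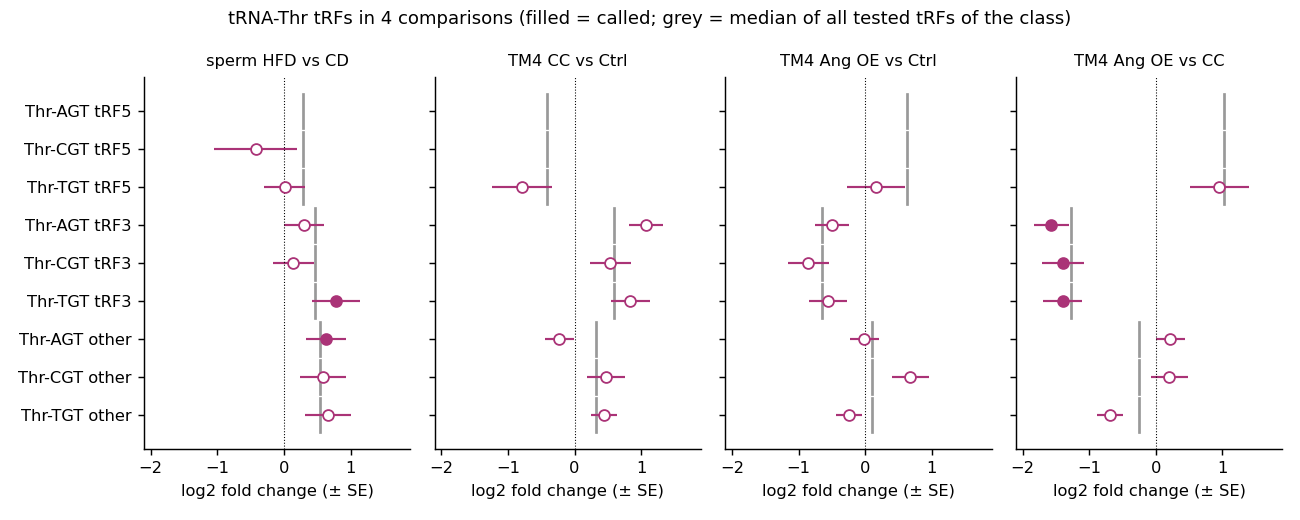
Circles give the log2 fold change of each tested tRNA-Thr tRF with its standard error as a bar, in 4 comparisons, filled where the tRF was called, and grey lines give the median of all tested tRFs of the same class. The 3 filled tRF3 circles of Ang OE against CC, at −1.57, −1.39 and −1.39, lie close to the class median of −1.28.

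Threonine tRNAs share base modifications with other tRNAs, and 3 lists of isoacceptors were drawn up on that ground. Of the 8 tRNAs edited to inosine at the wobble base, among them tRNA-Thr-AGT itself, 23 tRFs were tested in sperm and 6 were called higher, where 16.2% of all tRFs tested were, with a median log2 fold change of 0.49 against 0.44 over all tRFs. Of the 9 isoacceptors with 3-methylcytidine at position 32 of the anticodon loop, which include all 3 of threonine, 6 of 26 tRFs were called higher in sperm, with a median of 0.50. For Ang OE against CC this list had 1 of 25 tRFs called higher and 10 lower, where the shares over all tRFs were 11.2% and 27.3%, with a median of −0.69 against −0.38 over all tRFs.

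The third list held the tRNAs with N6-threonylcarbamoyladenosine at position 37, next to the anticodon, a mark made from threonine itself. Of its 13 isoacceptors 12 were in the files, and 4 of 33 tRFs were called higher in sperm, against 16.2% of all tRFs, with a median of 0.47. For Ang OE against CC 2 of 33 were called higher and 12 lower, against 11.2% and 27.3% of all tRFs, with a median of −0.64. The inosine list had 1 of 23 called higher and 6 lower in this comparison, with a median of −0.70. In CC against Ctrl the inosine list had no call, and each of the other lists had 1, the tRF5 of tRNA-Ser-GCT, where 0.699% of all tRFs were called. In Ang OE against Ctrl the inosine list had 2 tRFs called lower, the 3-methylcytidine list 1 called higher, and the third list 2 higher and 2 lower, where 4.2% of all tRFs were called higher and 5.59% lower. These counts were not tested against those over all tRFs.

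The isoacceptors whose levels followed those of tRNA-Thr most closely over the 12 libraries were tRNA-Gln-CTG, tRNA-Cys-GCA and tRNA-Val-TAC, out of 47 compared. The 12 points share library and depth between isoacceptors. The root mean square difference of their centered log2 profiles from that of tRNA-Thr was 0.25, 0.31 and 0.31. tRNA-Gln-CTG stood at 978 to 1817 RPM in CD, 1516 to 2407 RPM in HFD and 380 to 498 RPM over the TM4 libraries.

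The mitochondrial threonine tRNA, which has the anticodon TGT and is encoded apart from the nuclear genes, is counted separately. It stood at 13.3, 15.3 and 10.8 RPM in the CD libraries, 23.6, 14.98 and 20.4 RPM in the HFD libraries and 3.05 to 5.79 RPM in TM4 cells. Its 5′ end had 0 to 4 reads per sperm library and 2 to 22 per TM4 library. No read was assigned to a precursor of a threonine tRNA in any of the 12 libraries.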

How the data were processed

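Small RNA libraries of 6 sperm pools and 6 TM4 samples were used, grouped by their labels. According to the methods, the authors trimmed reads, annotated them with SPORTS1.1 (up to 1 mismatch) through rRNA, tRNA and further databases in turn, and deposited per library the reads of each subclass as estimated counts, without scaling; FastQC 0.12.0, Trimmomatic 0.40 and mm10 are named in the submitters' processing notes. Clean reads numbered 31710445 to 64038150 per library and mature tRNA reads 1272431 to 4595103.

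Genome-matched and unmatched reads were added. RPM are reads per 1000000 clean reads other than rRNA. A tRF was tested if 3 or more sperm libraries, or 2 or more TM4 libraries, held 10 or more of its reads, on rounded counts with edgeR 4.0.16 (R 4.3.3; quasi-likelihood, Benjamini-Hochberg adjustment), without further scaling. Single values were tested by exact permutation (scipy 1.17.1). The tests were checked on simulated data with 30 tRFs changed by 2 on the log2 scale, and called 90% to 100% of them. Unchanged tRFs called numbered 6 in sperm and 4, 1 and 0 in the TM4 comparisons. The check does not cover smaller changes, such as those seen in sperm. Alternatives were DESeq2 1.42.0, TMM, other library sizes, filters and read classes, ComBat-seq (sva 3.50.0), a replicate block and each library left out. The members and lists were chosen with earlier results of these data known. All 9 tRNA-Thr tRFs are described. Other isoacceptors are given where their log2(RPM + 1) profile, centered on its mean, was among the 3 nearest.

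tRNA genes were found in GRCm39 by pairing of the arms, as an own match, and paired with RefSeq names by chromosome, anticodon, length and spacing, with no conversion of coordinates. Replicate pairs differed by more than counting noise. The methods name a batch correction of the cell libraries by ComBat-seq but no batches, and the counts were used as deposited. Lengths of reads were not analysed here.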

Additional observations from a re-analysis of the deposited data

Results flagged for a closer look

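The effects of CC and of Ang OE on 4 tRNA-Thr tRFs differed from each other by a direct edgeR test between these groups. The effect of Ang OE minus that of CC was −1.57 on the log2 scale for the tRF3 of tRNA-Thr-AGT, −1.39 for that of tRNA-Thr-CGT, −1.39 for that of tRNA-Thr-TGT (adjusted p = 0.00495, 0.0115 and 0.00964) and −0.69 for the other class of tRNA-Thr-TGT (adjusted p = 0.0225). The value for the other class of tRNA-Thr-TGT ran from −1.03 to −0.26 over 22 alternative runs, with the same sign in all 22. Of all 143 tRFs tested, 51.7% reached an adjusted p under 0.05 in this comparison. No group had the 4 or more libraries that a test for a single deviating library needs.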

How the results depend on the processing

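Counts of called tRNA-Thr tRFs depended on the scaling, the tool and single libraries. In sperm the count of 2 became 0 with TMM or with DESeq2 and its own size factors, and 1 when rRNA reads were kept in the library size or with DESeq2 and the same library sizes. With each replicate left out it ran from 0 to 4, and from 1 to 5 with CCA-ended reads as a class of their own. For CC against Ctrl the count of 0 became 1 with DESeq2 and the same library sizes or with ComBat-seq on the replicate number, and ran from 0 to 3 with each replicate left out. For Ang OE against CC the count of 3 became 1 with TMM or with CCA-ended reads counted as other and 2 with DESeq2 and its own size factors (the tRF3 of tRNA-Thr-AGT lower and the tRF5 of tRNA-Thr-TGT higher), and ran from 2 to 4 with each replicate left out. For Ang OE against Ctrl it was 0 in every alternative run. Over all tRFs, the calls ran from 6 to 64 (23 in the main test) in sperm, from 1 to 29 (1) for CC, from 3 to 34 (14) for Ang OE against Ctrl and from 37 to 84 (55) for Ang OE against CC.

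Directions of some values that were not called turned with the scaling, the classes or a library left out. The cause was not tested. In sperm the tRF3 of tRNA-Thr-AGT had log2 fold changes of −0.19 with TMM and −0.10 with DESeq2 and its own size factors, and ran from −0.25 to 0.55 with each replicate left out. The tRF3 of tRNA-Thr-CGT was −0.40 with TMM, −0.30 with DESeq2 and its own size factors, −0.0026 with rRNA kept, −0.0128 with genome-matched reads alone, −0.0152 with CCA-ended reads as other and −0.0689 to 0.34 with each replicate left out. The tRF5 of tRNA-Thr-TGT was −0.53, −0.41 and −0.12 with TMM, DESeq2 size factors and rRNA kept, ran from −0.13 to 0.14 with each replicate left out, and was −0.0058 and −0.0214 with CCA-ended reads as a class of their own and CD replicate 1 or 3 left out. With CCA-ended reads as other, the other class of tRNA-Thr-AGT was 0.47 for CC against Ctrl and −0.68 for Ang OE against CC, and that of tRNA-Thr-CGT was −0.30 for Ang OE against CC, where it ran from −0.11 to 0.46 with each replicate left out. The other class of tRNA-Thr-TGT was −0.0086 with TMM for CC against Ctrl. For Ang OE against Ctrl, the other class of tRNA-Thr-AGT was 0.0038 with rRNA kept, 0.0513 with DESeq2 and its own size factors, 0.0491 with ComBat-seq, 0.0065 and 0.082 with CCA-ended reads as a class of their own and Ctrl replicate 2 or Ang OE replicate 2 left out, and −0.1125 to 0.082 with each replicate left out, and the tRF5 of tRNA-Thr-TGT ran from −0.0614 to 0.35. Of the shares of tRNA-Thr reads, in percentage points, tRF3 in sperm ran from −1.77 to 4.66 and other from −3.93 to 2.26 with each replicate left out. For CC minus Ctrl the share of tRF3 was −0.0238 with CCA-ended reads as other and −0.117 to 10.98 with each replicate left out. For Ang OE minus Ctrl the share of tRF5 was −0.00151 with genome-matched reads alone, and that of tRF3 was 0.018 with CCA-ended reads as other.

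Replicate numbers were not taken as pairs: same-numbered sperm libraries had correlations of 0.02, 0.21 and 0.21 between their deviations from the group means, and not every library correlated best with its own number. With a replicate block 2 tRNA-Thr tRFs were called in sperm, 0 in CC and 0 in Ang OE against Ctrl, and 3 in Ang OE against CC. In TM4 cells the correlation was 0.76 for Ctrl with CC and −0.22 and −0.25 for Ang OE with Ctrl and CC, and with the Ang OE numbers crossed, a pairing chosen after seeing the data, 0 were called against Ctrl, of 28 calls over all 143 tRFs, and 4 against CC, of 61. tRFs under 10 reads, among them the tRF5 of tRNA-Thr-AGT, were not compared.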
